A study of Drosophila melanogaster with 4 samples.

Results

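The regions described here are the H1-enriched clusters at the centromere-proximal ends of 4 chromosome arms as assembled in release 5 of the fly genome. The windows run from 21000001 to the end of 2L at 23011544, from 22000001 to the end of 3L at 24543557, from 1 to 1000000 on 3R, and from 21000001 to the end of X at 22422827. A cluster is a member where it lies wholly in one of them. Of the 15736 clusters in the list that the authors made for the replicate set, 866 are members (5.50%), with 256 on 2L, 384 on 3L, 111 on 3R and 115 on X. The rule uses position alone and no measured value, but the windows were chosen with earlier results of these data known. Together the windows hold 6.98 Mb, or 7.13% of these arms, and measure 2.01 Mb on 2L, 2.54 Mb on 3L, 1 Mb on 3R and 1.42 Mb on X. These arms hold 10840 clusters and the list also covers other sequences, so 5.50% and 7.13% are shares of different wholes. Per Mb, the windows held 124 clusters and the rest of these arms 110.

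H1 is the linker histone, which sits on the nucleosome at the entry and exit of the DNA and helps to fold the chromatin fibre. Towards the centromere, fly chromosome arms pass from gene-rich euchromatin into pericentric heterochromatin, which is rich in transposons and other repeats and is marked by methylated histone H3 lysine 9 and HP1. In Drosophila, H1 is known to be needed for the silencing of transposons and for the structure of pericentric heterochromatin.

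The series holds 2 H1 chromatin immunoprecipitation (ChIP) replicates and 2 input samples, from nuclei of heads of wild-type Oregon-R adults of mixed adult stage. The labels tie each input to a ChIP replicate of the same number and give no sex. They do not state if flies were collected anew for each replicate, and the spread may be technical. Whole heads hold many cell types, and a cluster list cannot tell H1 in a few cells from less H1 in all. Each ChIP replicate has its own list of clusters and the authors' combined list covers both. With 1 ChIP group no test between conditions can be made, so the values below are descriptions, with the replicates as the only measure of error. The read depth behind the lists is unknown.

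The combined list covered more of the window than of the rest of the arm on 3L and X, less on 3R, and about as much on 2L. Coverage is the share of bases that lie in clusters. On 3L it was 31.1% in the window and 22.5% in the rest of the arm, a ratio of 1.38. The X window had 12.7% and the rest of X 7.31%, a ratio of 1.74. On 3R the window had 17.1% and the rest 24.5%, a ratio of 0.697. The 2L window was covered to 24.8% and the rest of 2L to 24.2%, a ratio of 1.02. In this list the X window was therefore more densely covered than the rest of its arm. It was still less covered than the other windows, or than the rest of 2L, 3L and 3R. In replicate 2 the X window was more covered than the 3R window, at 2.57% and 1.21%.

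The replicate lists had the same order of window and rest on 3L, X and 3R, and opposite orders on 2L. In replicate 1, coverage on 3L was 4.11% in the window and 3.52% in the rest. In replicate 2 it was 7.19% in the window and 2.87% in the rest. The X window had 1.15% in replicate 1 and 2.57% in replicate 2, against 0.896% and 0.635% of the rest of X in the same order. On 3R the window had 2.90% in replicate 1 and 1.21% in replicate 2, against 4.69% and 3.29% of the rest. On 2L replicate 1 had 2.51% in the window and 3.63% in the rest, whereas replicate 2 had 5.71% in the window and 3.49% in the rest.

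**Figure D1:**
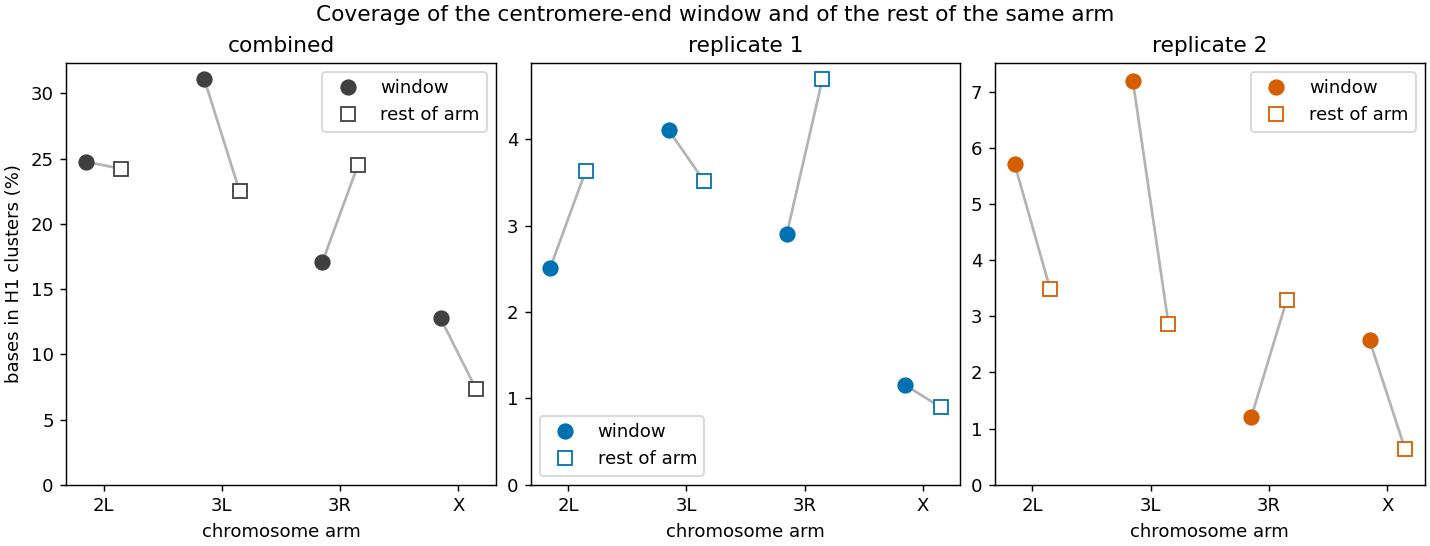
Share of bases in H1 clusters (%) in the centromere-end window (filled circles) and in the rest of the same arm (open squares), for each arm and list, with a scale of its own for each list. In all 3 lists the window lies above the rest on 3L and X and below it on 3R, and on 2L the replicates are opposed.

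The replicates differed by a larger factor in the windows than in the rest of the arms. Replicate 2 covered 2.28 times as much of the 2L window as replicate 1, 1.75 times as much of the 3L window and 2.23 times as much of the X window. In the rest of the same arms the ratios of replicate 2 to replicate 1 were 0.960 on 2L, 0.815 on 3L and 0.709 on X. On 3R the ratio was 0.415 in the window and 0.702 in the rest, so replicate 2 was the lower one in both places. As the mean of the replicates, coverage differed between window and rest by 0.551 points ± 2.37 on 2L, 2.45 points ± 2.64 on 3L, -1.94 points ± 0.212 on 3R and 1.10 points ± 1.19 on X (SD, n = 2 each). Only on 3R was the mean difference larger than the spread between replicates.

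Each window was also set beside the other stretches of its arm, cut from the centromere end inward at the length of the window. In replicate 2 the end stretch had the highest coverage of 11 stretches on 2L, of 10 on 3L and of 16 on X. The other stretches of replicate 2 reached at most 5.58% on 2L, 4.51% on 3L and 1.72% on X. In replicate 1 the end stretch was the lowest of 11 on 2L, ranked 3 of 10 on 3L, and ranked 4 of 16 on X. In the combined list it ranked 6 of 11 on 2L and was the highest on 3L and on X. The 3R end ranked 25 of 28 in the combined list, 26 of 28 in replicate 1 and 25 of 28 in replicate 2. The end of 3R was thus near the bottom of its arm in every list, and the end of 3L was in the upper 3 in every list. The stretch next to the 3R end was lower still in the combined list, at 16.0% against 17.1%. So it was in replicate 2, at 0.423% against 1.21%, but not in replicate 1, at 3.95% against 2.90%. On X the stretch next to the end was the highest of the others in the combined list (11.8%) and in replicate 2 (1.72%). In replicate 1 it had 1.10%, and the others reached 2.28%.

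**Figure D2:**
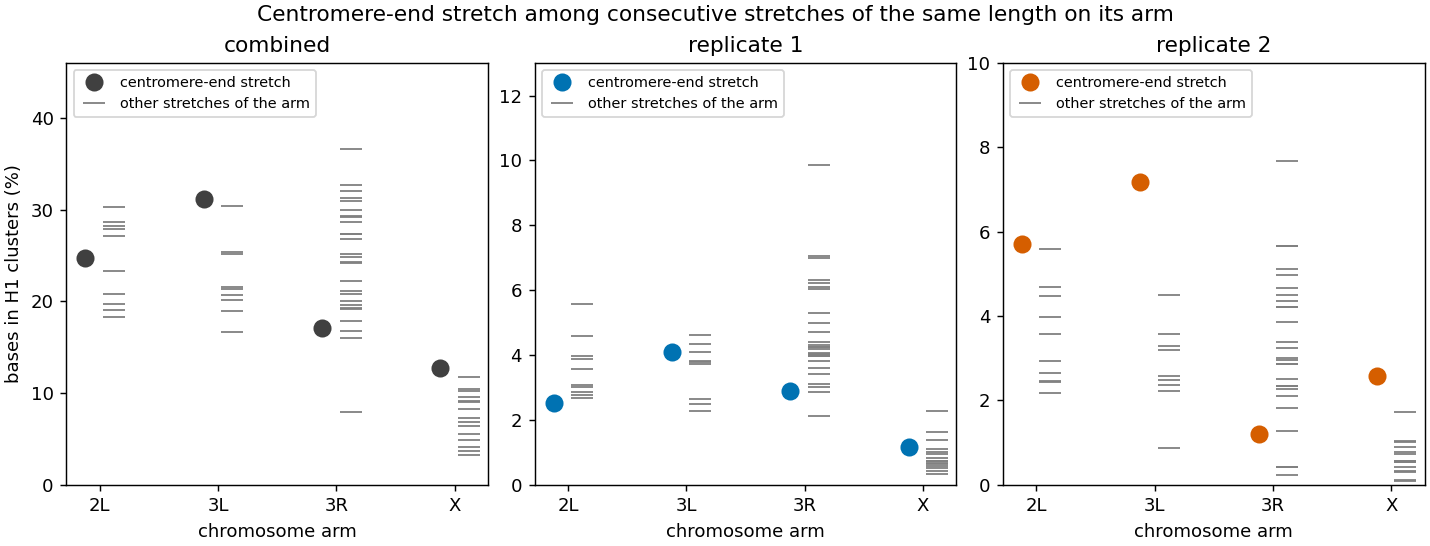
Share of bases in H1 clusters (%) of the centromere-end stretch (circles) and of the other consecutive stretches of the same length on that arm (dashes), for each list. In replicate 2 the end stretches of 2L, 3L and X lie above every other stretch of their arm, while the 3R end lies among the lowest in all 3 lists.

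Along the windows, coverage was read in bins of 100 kb counted from the centromere end. On 2L and 3L the stretches of 500 kb that lay beyond 1500 kb were the least covered in every list. On 3R the bins next to the end were low in the combined list, and on X coverage was patchy. Spearman's correlation between coverage and distance from the end, negative where coverage is higher near the centromere, was -0.51 on 2L (20 bins), -0.40 on 3L (25 bins), 0.62 on 3R (10 bins) and -0.34 on X (14 bins) in the combined list. Neighbouring bins of 1 library are not independent, so these are given without a p-value. Leaving out any single bin kept the sign on all arms in the combined list, with values between -0.56 and -0.44 for 2L, between -0.51 and -0.34 for 3L, between 0.48 and 0.73 for 3R and between -0.43 and -0.20 for X. In replicate 1 the correlation was -0.085 on 2L, -0.35 on 3L, 0.48 on 3R and 0.090 on X. In replicate 2 it was -0.35 on 2L, -0.71 on 3L, -0.097 on 3R and -0.094 on X. Only 3L had a correlation beyond 0.3 of the same sign in every list. In the replicates, leaving out 1 bin could turn the sign on X in both and on 3R in replicate 2, where the correlation was near 0.

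On 3L, where replicate 2 had its strongest correlation with distance, that replicate covered 11.6% of the 500 kb next to the centromere end and 12.7% from 500 to 1000 kb. It then covered 8.88% from 1000 to 1500 kb, 2.49% from 1500 to 2000 kb and 0.966% from 2000 to 2500 kb. Replicate 1 had 3.98%, 5.27%, 3.79%, 3.08% and 3.69% over the same 5 stretches. The combined list had 33.0%, 42.8%, 29.4%, 26.0% and 22.7%. All 3 lists were thus highest between 500 and 1000 kb and not at the very end, and the decline with distance was far larger in replicate 2 than in replicate 1. The most covered bin of 3L in the combined list lay from 600 to 700 kb, at 59.6%, and only 3 of 220 bins in the rest of 3L were more covered. In replicate 2 the same bin had 24.8%, above all 220 bins of the rest of the arm. In replicate 1 it had 5.15%, and the most covered bin, from 500 to 600 kb, had 9.36%. The least covered bin of the combined list lay from 1700 to 1800 kb, at 7.13%.

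On 2L, the combined list covered 26.0% of the first 500 kb, 32.3% from 500 to 1000 kb and 31.9% from 1000 to 1500 kb, but 9.17% from 1500 to 2000 kb. Replicate 2 had 6.30%, 7.57%, 7.63% and 1.48% over these stretches, and replicate 1 had 2.34%, 2.57%, 3.65% and 1.54%. The stretch from 1500 to 2000 kb was the lowest in every list. The most covered bin lay from 600 to 700 kb in the combined list, at 56.7%, and in replicate 2, at 22.6%, above all 210 bins of the rest of 2L in that replicate. In replicate 1 the same bin had 6.92%, and the most covered one, from 1000 to 1100 kb, had 7.23%. The least covered bin, from 1700 to 1800 kb, had 1.41% in the combined list.

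The longest gap between neighbouring members was also on 2L, from 21415464 to 21543954 (128 kb), centred 1532 kb from the end. The tandem array of histone genes, which includes the genes for H1 itself, is known to lie in the proximal part of 2L. No annotation of release 5 was used, and whether this gap falls on that array was not tested. The longest gaps on the other arms were 40.0 kb on 3L from 22438372 to 22478354, 59.8 kb on 3R from 180269 to 240098 and 116 kb on X from 21160273 to 21275982. The median gap was 1516 bp on 2L, 1888 bp on 3L, 3164 bp on 3R and 3727 bp on X. Neighbours stood at most 1 kb apart in 33.3% of gaps on 2L and 34.7% on 3L, and in 20.9% on 3R and 21.1% on X. Members on 2L and 3L were therefore packed more closely than those on 3R and X.

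On 3R, the 3 bins next to the end had 9.70%, 5.17% and 7.20% in the combined list, and the bin from 300 to 400 kb had 27.9%. The first 500 kb were covered to 14.5% and the next 500 kb to 19.7%. Replicate 1 had 1.96% and 3.85% over these stretches, whereas replicate 2 had 1.58% and 0.833%. Higher coverage away from the end was thus seen in the combined list and in replicate 1, and replicate 2 placed only 8 clusters in the whole window. The most covered bin of the combined list was the innermost one, from 900 to 1000 kb, at 29.8%, and 90 of 269 bins in the rest of 3R were more covered than it.

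On X, the combined list covered 14.8% of the first 500 kb, 13.7% from 500 to 1000 kb and 9.19% beyond. The bin from 700 to 800 kb had 29.4%, more than any of the 210 bins in the rest of X, and 12 of 14 bins lay above the median bin of the rest of X, which was 5.12%. In replicate 2 this bin held 17.1%, while no other bin of the window passed 3.89%. In replicate 1 it held 2.80%, and the bin from 800 to 900 kb was the highest with 4.99%. The least covered bin was the one from 1200 to 1300 kb, at 1.02% in the combined list. Bins without a cluster were common on X, at 8 of 14 in replicate 1 and 6 of 14 in replicate 2, against 56.7% and 72.9% of bins in the rest of X.

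Counted the same way on the autosomes, 19 of 25 bins on 3L, 7 of 20 on 2L and 3 of 10 on 3R lay above the median bin of the rest of the arm in the combined list. That median was 20.4% on 3L, 22.5% on 2L and 22.2% on 3R. On 2L the window thus mixed a few heavily covered bins with many below the median of the arm, and its mean was close to that of the rest.

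**Figure D3:**
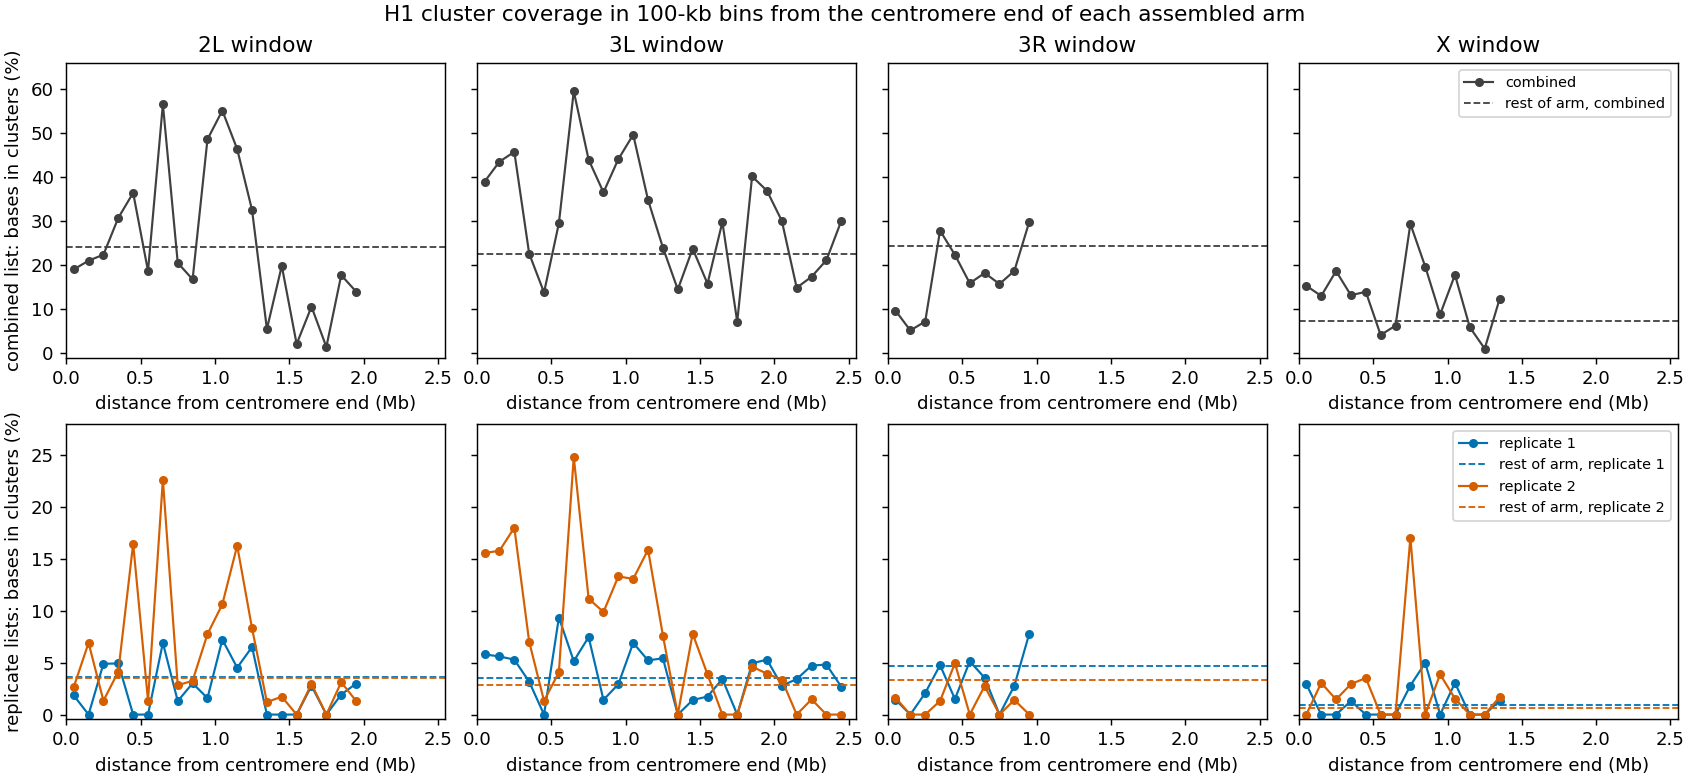
Share of bases in H1 clusters (%) in bins of 100 kb against distance from the centromere end (Mb), in the combined list (upper row) and in the replicates (lower row), with dashed lines at the coverage of the rest of each arm. Replicate 2 peaks from 600 to 700 kb on 2L (22.6%) and 3L (24.8%), and from 700 to 800 kb on X (17.1%). The bins next to the 3R end lie below the dashed line in every list, as do most bins of that window in replicate 2.

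Release 5 also holds heterochromatic sequence assigned to an arm but kept apart from it, named 2LHet, 3LHet, 3RHet and XHet. In the combined list the 500 kb next to the end of 3L had 33.0% and 3LHet 34.3%. In replicate 1 these were 3.98% and 3.99%, and in replicate 2 they were 11.6% and 12.4%. The 500 kb next to the end of 3R had 14.5% in the combined list, 1.96% in replicate 1 and 1.58% in replicate 2, against 41.5%, 5.19% and 18.0% in 3RHet. The 3L end and 3LHet thus had similar coverage in each list, whereas the 3R end lay below 3RHet in each. The 500 kb next to the end of 2L had 26.0% in the combined list, 2.34% in replicate 1 and 6.30% in replicate 2, against 14.7%, 0.380% and 3.90% in 2LHet. On X the values were 14.8%, 0.847% and 2.20% next to the end, against 14.4%, 0.641% and 1.54% in XHet. The 2L end thus lay above 2LHet in each list, and the X end lay slightly above XHet. These sequences are short, and 2LHet (369 kb) held 1 cluster in replicate 1 and 9 in replicate 2. XHet (204 kb) held 1 and 2, and the 500 kb next to the X end held 3 and 6. In the replicates the order on X, and on 2L in replicate 1, therefore rests on very few clusters. No test was made, and bases to which reads cannot be aligned count in all of these shares.

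The authors' score of each cluster was read as a log2 enrichment of ChIP over input, and fold enrichment below is 2 raised to it. It is the authors' own value for each called cluster and is used here to describe and rank clusters within a list. Median scores in the windows were close to those in the rest of the arms. The median fold of members was 1.36 on 2L, 1.36 on 3L, 1.33 on 3R and 1.48 on X in the combined list, against 1.34, 1.34, 1.34 and 1.48 in the rest of the same arms. The median score of the window differed from that of the rest by at most 0.015 on the log2 scale in the combined list. In replicate 1 the differences were 0.011 on 2L, 0.0014 on 3L, -0.049 on 3R and 0.027 on X. In replicate 2 they were 0.0085 on 2L, 0.022 on 3L, -0.027 on 3R and 0.00 on X. The 3R window was the one with a lower median score than the rest of its arm in every list. In the combined list the upper quartile in the windows was 0.493 on 2L, 0.491 on 3L, 0.440 on 3R and 0.626 on X. It was 0.455, 0.454, 0.456 and 0.604 in the rest, in that order of arms. The upper quartile of score was thus higher in the window on 2L, 3L and X, and lower on 3R.

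Within the windows of 2L and 3L, scores were higher nearer the centromere end in all 3 lists. Spearman's correlation between score and distance was -0.28 on 2L (256 members) and -0.37 on 3L (384 members) in the combined list. It was -0.56 on 2L (32 clusters) and -0.24 on 3L (60 clusters) in replicate 1, and -0.32 on 2L (64 clusters) and -0.21 on 3L (101 clusters) in replicate 2. On 3R the correlation was 0.29 in the combined list, 0.26 in replicate 1 and -0.43 over the 8 clusters of replicate 2. On X it was 0.052 in the combined list, 0.43 over the 10 clusters of replicate 1 and 0.012 in replicate 2. The size of the change was small. On 3L the median fold was 1.39 in the first 500 kb, 1.37 from 500 to 1000 kb, 1.36 from 1000 to 1500 kb, 1.33 from 1500 to 2000 kb and 1.34 from 2000 to 2500 kb. On 2L it was 1.37, 1.37, 1.35 and 1.32 over its 4 stretches of 500 kb. On 3R it was 1.31 in the first 500 kb and 1.34 in the next.

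The amount of input behind the scores also varied along the windows, though less evenly over the lists. Nearly all scores, as powers of 2, are a ratio of whole numbers times 1 constant per list, and the divisor in lowest terms (here the reduced input count) is a relative measure of the input reads in a cluster, which shared factors can make smaller than the true count. The constant could be off by a small whole-number ratio, so these counts and any limit set on them carry that uncertainty. Pooled over the 4 arms, its median per kb was lower in the windows than in the rest, at 97.0 and 143 in the combined list, 44.0 and 61.8 in replicate 1, and 49.0 and 75.1 in replicate 2. By arm it was 106 on 2L, 97.6 on 3L, 155 on 3R and 76.0 on X in the windows of the combined list, against 156, 154, 154 and 79.7 in the rest. In replicate 1 the windows had 56.5, 39.3, 59.8 and 38.6 in that order of arms, against 65.6, 65.0, 63.0 and 30.7 in the rest. In replicate 2 they had 48.4, 54.3, 81.9 and 45.2, against 77.3, 77.6, 76.8 and 37.0. The windows of 2L and 3L were thus lower than the rest of their arms in every list, while X was higher in both replicates and 3R was mixed. On 3L it was 69.8 per kb in the first 500 kb and 146 per kb from 2000 to 2500 kb in the combined list. On 2L it was 84.9 in the first 500 kb and 164 from 1500 to 2000 kb. The correlation between this measure and distance was 0.22 on 2L and 0.28 on 3L, and -0.050 on 3R and -0.086 on X, in the combined list. On 2L it was 0.44 in replicate 1 and 0.27 in replicate 2, but on 3L it was 0.015 in replicate 1 and 0.066 in replicate 2. On 3L the input measure therefore had next to no relation with distance in either replicate. Within each window of the combined list scores were higher where this count was lower, with correlations from -0.51 on X to -0.31 on 3R. The input reads are the divisor of the score, so the 2 measures share their counting error. The part of input depth in the score trends was not tested.

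**Figure D4:**
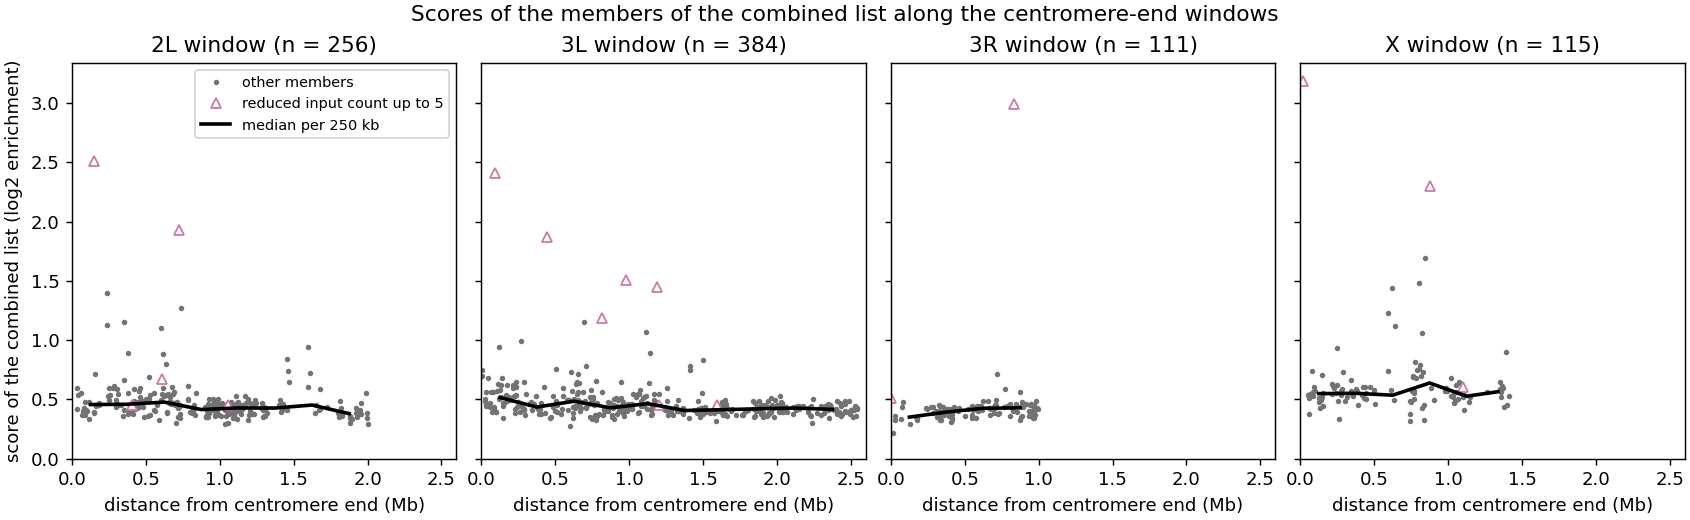
Score of each member of the combined list (log2 enrichment) against distance of its midpoint from the centromere end (Mb), with the median per 250 kb as a line and members with a reduced input count of 5 or less as triangles. On 2L and 3L the medians are slightly higher near the end. Of the 23 members of 2-fold or more in all windows together, 10 have a reduced input count of 5 or less.

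Clusters of 2-fold enrichment or more were a larger share of the windows than of the rest of the arms. In the combined list 23 of 866 members reached it (2.66%, 95% Wilson interval 1.78 to 3.95), against 28 of 9974 clusters in the rest of the 4 arms (0.281%, 0.194 to 0.405). The intervals cover counting error only. The 23 were 7 on 2L, 7 on 3L, 1 on 3R and 8 on X, and the 28 in the rest were 4, 8, 3 and 13 in that order of arms. In replicate 1 there were 4 of 120 in the windows and 13 of 1802 in the rest, and in replicate 2 there were 4 of 192 and 3 of 1417. These members were short, with a median length of 1078 bp where the shortest cluster of the list measures 1001 bp. Their reduced input counts were from 1 to 33 with a median of 6. When clusters whose reduced input count did not pass 5 were left out, 13 of 849 members (1.53%) and 14 of 9836 clusters of the rest (0.142%) reached 2-fold. This contrast was chosen after its values were seen.

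The members of highest score were a 1088-bp cluster on X from 22402092 to 22403179 (9.12-fold), a 1001-bp cluster on 3R from 832530 to 833530 (7.98-fold), a 1015-bp cluster on 2L from 22859718 to 22860732 (5.70-fold) and a 1008-bp cluster on 3L from 24448302 to 24449309 (5.32-fold). Their reduced input counts were 1, 1, 1 and 3, and no cluster of either replicate overlapped them. The second on 2L lay from 22288161 to 22289250 (3.80-fold), the second on 3L from 24097605 to 24098605 (3.65-fold) and the second on 3R from 715221 to 716223 (1.64-fold). None of these 3 overlapped a replicate cluster. The second on X, from 21547641 to 21549632 (4.94-fold), was covered to 96.6% by clusters of replicate 1 and not at all by replicate 2. Of these 8 members, 7 were thus clusters that neither replicate list holds, beside 69.2% of all members and 72.5% of combined clusters in the rest. The shortest cluster of the replicate lists measures 1301 bp, and all of these 7 were shorter.

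Lengths in the window and in the rest differed by arm. Median length was 1596 bp on 2L, 1698 bp on 3L, 1277 bp on 3R and 1388 bp on X in the combined list, against 1552, 1502, 1556.5 and 1315.5 bp in the rest of the same arms. In replicate 1 the medians of the windows were 1492, 1596, 1540 and 1571 bp in that order of arms, against 1558, 1498, 1526 and 1444 bp in the rest. In replicate 2 they were 1519, 1597, 1430 and 1704 bp, against 1520.5, 1539.5, 1551 and 1453 bp. Clusters were thus longer in the window than in the rest on 3L and X in every list. The density of members was 127 per Mb on 2L, 151 on 3L, 111 on 3R and 80.8 on X, against 131, 123, 129 and 49.6 per Mb in the rest.

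The longest member lay on 2L from 22349587 to 22356475 (6889 bp, 1.38-fold), in the bin that was the most covered of that window. Replicate 1 clusters covered 28.8% of it and replicate 2 clusters 67.7%. The next on 2L were from 21990608 to 21996870 (6263 bp) and from 22063240 to 22069472 (6233 bp), covered to 24.2% and 25.5% by replicate 1 and not at all by replicate 2. On 3L the longest lay only 79492 bases from the end, from 24457253 to 24464065 (6813 bp, 1.33-fold), and was covered to 85.2% by replicate 1 and 81.8% by replicate 2. The next on 3L were from 23424046 to 23430733 (6688 bp, 1.44-fold), with 48.8% in replicate 1 and 68.9% in replicate 2, and from 23497589 to 23504124 (6536 bp, 1.44-fold), with 41.2% and 30.7%. All 3 longest members of 3L thus held clusters of both replicates.

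On X the longest member, from 21637405 to 21641682 (4278 bp, 1.60-fold), was covered to 84.0% by replicate 2 and not by replicate 1. The next, from 21673751 to 21677888 (4138 bp, 1.39-fold), was covered to 48.4% by replicate 1 and 41.2% by replicate 2. The third on X, from 21998141 to 22001643 (3503 bp), was covered to 40.9% by replicate 2 alone. On 3R the longest were from 989439 to 994203 (4765 bp, 1.35-fold), from 606614 to 610327 (3714 bp, 1.36-fold) and from 701021 to 704699 (3679 bp, 1.34-fold). Replicate 1 covered 27.5% of the first and 59.5% of the second, and replicate 2 covered none of the 3. Members of at least 5 kb numbered 15 on 3L and 6 on 2L, and 3R and X had none.

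The members nearest the end of the assembled arm began 1344 bases from it on 3L, 1507 bases on 3R, 19648 bases on X and 30663 bases on 2L. On 3L this was the cluster from 24541139 to 24542213 (1.68-fold), on 3R the one from 1508 to 2708 (1.43-fold), on 2L the one from 22979670 to 22980881 (1.52-fold), and on X the 9.12-fold cluster named above. None overlapped a replicate cluster, as was the case for 69.2% of all members. All of them were shorter than the shortest replicate cluster of 1301 bp. At the inner border of the windows, clusters just inside had 1.22-fold on 2L, 1.35-fold on 3L, 1.33-fold on 3R and 1.44-fold on X. Those just outside had 1.32-fold, 1.31-fold, 1.29-fold and 1.47-fold, and no combined cluster crossed a border.

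Overlap of the replicate lists was highest in the 3L window, and on 3R no member was held by both replicates. Of 866 members, 34 overlapped a cluster of both replicates by at least 1 bp (3.93%, 95% Wilson interval 2.82 to 5.44), beside 2.79% of all combined clusters on 2L, 3L, 3R and X. On 3L it was 24 of 384 members (6.25%, 4.24 to 9.13) and in the rest of 3L 55 of 2711 clusters (2.03%, 1.56 to 2.63). On 2L it was 8 of 256 members and 83 of 2745 clusters of the rest, at 3.13% and 3.02%. On X it was 2 of 115 members and 8 of 1042 clusters of the rest. On 3R it was 0 of 111 members, which allows a share of up to 2.70% at 3 counts and 3.35% by the Wilson interval, and 122 of 3476 clusters of the rest (3.51%, 2.95 to 4.17). The intervals of these overlaps, here and below, cover counting error only and treat neighbouring clusters of the same libraries as independent.

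Replicate 1 clusters overlapped 13.6% of the members, beside 16.5% of all combined clusters of these arms. Replicate 2 clusters overlapped 21.1% of the members, beside 14.1% of all combined clusters. By arm, replicate 2 overlapped 24.2% of members on 2L, 24.2% on 3L, 7.21% on 3R and 17.4% on X, against 15.2%, 13.4%, 14.0% and 7.77% in the rest. Replicate 1 overlapped 12.5% on 2L, 15.1% on 3L, 16.2% on 3R and 8.70% on X, against 15.3%, 16.3%, 20.2% and 9.79% in the rest. On each arm the window thus held a smaller share of clusters seen in replicate 1 than the rest did, though the shares were close on 3L and X. On 2L, 3L and X the window held a larger share of those seen in replicate 2. The combined list was made from the same replicates, so these overlaps are not independent evidence. A longer cluster also has more room to overlap, and the median length was 3713 bp for members held by both lists and 1329 bp for the 599 of 866 held by neither.

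Between the replicate lists themselves, 31 of the 120 replicate 1 clusters in the windows overlapped a cluster of replicate 2 (25.8%, 95% Wilson interval 18.8 to 34.3), beside 14.2% of all replicate 1 clusters on these arms. On 3L it was 23 of 60 (38.3%, 27.1 to 51.0) and in the rest of 3L 43 of 471 (9.13%, 6.85 to 12.1). On 2L it was 6 of 32 (18.8%, 8.89 to 35.3), close to 71 of 453 in the rest of 2L (15.7%). On X it was 2 of 10 and in the rest of X 8 of 123. On 3R it was 0 of 18, which allows up to 16.7% at 3 counts and 17.6% by the Wilson interval. In the rest of 3R it was 119 of 755 (15.8%), which lies within what 0 of 18 allows. In the other direction, 32 of the 192 replicate 2 clusters in the windows overlapped replicate 1 (16.7%, 12.1 to 22.6), beside 17.1% of all replicate 2 clusters. On 3L it was 24 of 101 (23.8%, 16.5 to 32.9) and in the rest of 3L 44 of 372 (11.8%, 8.93 to 15.5). Of the 4 windows, that of 3L had the highest share in both directions. A denser list gives more overlap without any other change, and replicate 2 covered the 3L window 2.51 times as densely as the rest of 3L. The part of this density in the overlap was not tested.

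The replicates shared bases at 32 places in the windows, 24 on 3L, 6 on 2L and 2 on X. The shared bases came to 26.6 kb of the 261 kb in either list on the 3L window (10.2%), beside 3.22% in the rest of 3L. On 2L they were 2.72% in the window and 5.17% in the rest, and on X 4.79% in the window and 2.41% in the rest. The longest shared place ran over 5413 bp on 3L from 24457655 to 24463067, inside the longest member of that window. The clusters that met there ran from 24457655 to 24463457 in replicate 1 and from 24457495 to 24463067 in replicate 2, both of 1.34-fold enrichment. Their reduced input counts per kb were 314 and 339, against medians of 39.3 and 54.3 in the 3L window of replicates 1 and 2. The part of this high input in the overlap was not tested. The longest shared places on the other arms were from 21764997 to 21766208 on 2L (1212 bp) and from 21403574 to 21405054 on X (1481 bp). On 3L 22 of the 24 places lay in the 1272 kb nearest the end.

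**Figure D5:**
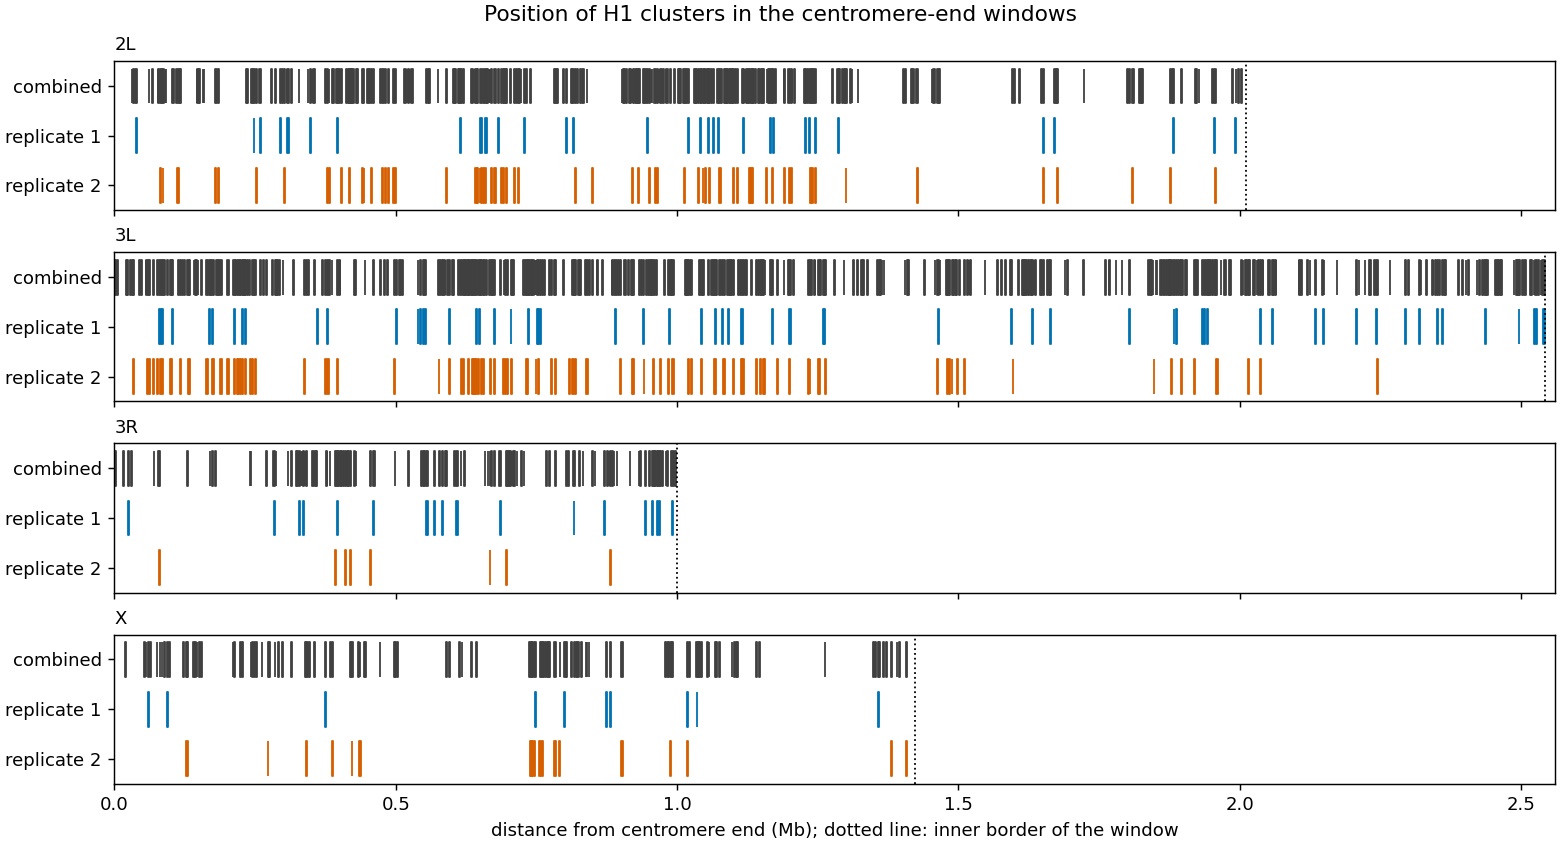
Position of the clusters of the combined list and of the 2 replicates along each window, against distance from the centromere end (Mb), with a dotted line at the inner border of the window. On 2L and 3L most clusters of replicate 2 lie within about 1300 kb of the end, and replicate 1 spreads more evenly over 3L. Coverage by replicate 2 is uneven within that distance. It is 1.34% from 200 to 300 kb on 2L and 1.32% from 400 to 500 kb on 3L.

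Over bins of 100 kb, the profiles of the replicates were more alike in the windows of 2L and 3L than on 3R and X. Spearman's correlation between the replicates was 0.51 on 2L (20 bins), 0.54 on 3L (25 bins), -0.058 on 3R (10 bins) and -0.010 on X (14 bins). In the rest of the same arms it was 0.24 on 2L, 0.30 on 3L, 0.41 on 3R and 0.25 on X, over 210 to 269 bins. These bins share alignability and input depth, and the values are descriptions. Replicate 2 was higher than replicate 1 in 15 of 20 bins on 2L, 15 of 25 on 3L, 2 of 10 on 3R and 7 of 14 on X. In the rest of the arms it was higher in 41.4% of bins on 2L, 34.1% on 3L, 27.9% on 3R and 19.0% on X.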

How the data were processed

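H1 ChIP-seq of adult fly head nuclei was deposited as 3 lists of enriched clusters, 1 for each ChIP replicate and 1 combined list for the replicate set. Per the submitters' processing notes, alignment used Bowtie 0.12.7. Per the file headers, positions refer to FlyBase release 5, and they are printed 1-based. For the caller, its threshold, its filters and the way the replicates were combined, nothing is given in the sources used here. The unnamed score that the authors deposited was read, from the values, as a log2 enrichment. Raised as a power of 2, scores were ratios of whole numbers (divisor up to 2000, tolerance 1e-12) times a constant of 1.14 in the combined list, 1.17 in replicate 1 and 1.11 in replicate 2, for 99.93%, 99.96% and 99.97% of clusters. Each constant could be off by a small whole-number ratio. The input samples entered only through the authors' calls, and no depth is known.

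Coverage, counted over all bases, Spearman's correlation and Wilson intervals were computed in Python 3.11.15 with numpy 2.4.6, pandas 2.3.3 and scipy 1.17.1, and figures were drawn with matplotlib 3.10.9. The share of bases to which reads can be aligned was not determined. Distance runs from the centromere end of the assembled arm to the cluster midpoint. Bins shorter than 50% of their size were left out. Overlap means at least 1 bp shared. The functions were tested on simulated data. Clusters named singly are, on each arm, the 3 longest members, the 2 of highest score, the one nearest the end, the longest gap, the clusters on either side of the border, and the bins of highest and lowest coverage. Windows, members and this list of values were chosen with earlier results of these data known. No genes or sequences are given, since the gene table used here is of release 6 and was not used for placing clusters. Alternatives were other bin sizes, references, length and score limits, a stricter overlap and each replicate list alone.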

Additional observations from a re-analysis of the deposited data

Results flagged for a closer look

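The difference in coverage between window and rest had opposite signs on 3L and 3R in both replicates. It was 2.45 points ± 2.64 on 3L and -1.94 points ± 0.212 on 3R (SD, n = 2), a gap of 4.39 points between the arms. The same held for 3R and X, with -1.94 points ± 0.212 on 3R and 1.10 points ± 1.19 on X, a gap of -3.03 points. Neither gap was tested. Median reduced input count per kb of the combined list was 97.6 in the 3L window, 155 in the 3R window and 76.0 in the X window, and its part in these gaps was not tested.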

How the results depend on the processing

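Of 76 values recomputed under other settings, 51 kept their direction and moved by less than the spread between replicates. Another 19 moved further and 6 changed direction. The 51 include coverage ratios with clusters clipped at the border, which could not change because no combined cluster crossed a border. The overlap shares, all counted as moved, use both replicates at once and have no spread between them. Values of each replicate list alone were set against a spread made of those same values. With each replicate list alone, the ratio of window to rest lay between 0.691 and 1.64 for 2L, 1.17 and 2.51 for 3L, 0.366 and 0.619 for 3R, and 1.29 and 4.05 for X. The 2L ratio was 0.997 against the adjoining 5 Mb, and the 3R ratio was 0.414 with the highest-scoring 50% of clusters. The correlation of coverage with distance in the single lists lay between -0.35 and -0.085 for 2L, -0.71 and -0.35 for 3L, -0.097 and 0.48 for 3R, and -0.094 and 0.090 for X. The correlation of score with distance lay between -0.56 and -0.32 for 2L, -0.24 and -0.21 for 3L, -0.43 and 0.26 for 3R, and 0.012 and 0.43 for X. Taken over bin medians, it was -0.51 on 2L and -0.61 on 3L. Among clusters of at least 1542 bp it was -0.44 on 3L and -0.0020 on 3R, and among those of at least 1301 bp -0.42 on 3L. The share of members in both replicates was 1.04% when 50% of the cluster had to overlap and 1.77% among the highest-scoring 50%. The share of replicate 1 clusters in replicate 2 was then 15.0% and 17.9%. The causes were not tested. Leaving out clusters with a reduced input count of 5 or less, chosen after seeing the data, changed no direction of a coverage ratio or a score trend. In the replicates, 3R values rest on 18 and 8 clusters and X values on 10 and 19. Window and rest were compared within each replicate, and no test was made of these paired differences.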
